A study of Mus musculus with 2 samples.

Results

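The 43 genes described here copy the chromosomes, divide them between daughter cells, or hold a cell in or out of that cycle. They were listed by symbol, with earlier results of these data known, out of 55536 annotated genes, and all 43 were found. They comprise 10 replication genes, 20 mitosis genes, 9 genes of G1 and entry into S phase (cyclins, kinases and E2f1), and 4 genes that restrain the cycle as cells leave it. Total RNA was sequenced from the gastrocnemius, a muscle of the calf, of 2 male mice aged 4 days. The labels give no treatment, and both animals were of strain B6CASTF1/J, a hybrid of C57BL/6J and a CAST mouse. The labels list them as biological replicates 1 and 2 of a single group and give them separate animal numbers. With a single group, levels were compared between genes of a library and between the 2 libraries, and no test between conditions could be made.

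A replicating cell first loads the Mcm2 to Mcm7 helicase on its origins, then unwinds and copies its DNA with the sliding clamp Pcna while Rrm1, Rrm2 and Tyms supply deoxynucleotides. Mitosis genes are switched on later, in G2, and their products condense chromosomes, build the spindle and attach chromosomes to it, and destroy cyclins at anaphase. In the muscle of newborn mice, muscle precursor cells and interstitial cells still divide, whereas nuclei within myofibres have left the cycle for good.

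Every one of the 43 genes was detected well above counting noise, with at least 232 expected counts in each library. The libraries held 35281187 expected counts in annotated genes for replicate 1 and 32301531 for replicate 2, of which the 43 genes took 0.173% and 0.193%. Levels are given in TPM, a transcript's share of all transcripts on a fixed scale after division by its length, so that genes can be compared. Mean levels ran from 4.29 ± 0.0778 TPM for Bub1 to 109 ± 1.33 TPM for Ccnd3 (mean ± SD, n = 2 here and below), and 29 of the 43 genes reached 10 TPM in both libraries. Markers of epidermis and hair follicle set replicate 2 apart from replicate 1 and are given after the class ratios. In RNA from whole muscle, fewer cells in the cycle and less RNA per cell cannot be told apart.

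Replication genes were more abundant than mitosis genes in both libraries. The median of the 10 replication genes was 17.4 TPM in replicate 1 against 18.1 TPM in replicate 2, and that of the 20 mitosis genes was 9.47 and 11.3 TPM. The difference of the class medians on the scale of log2(TPM + 0.1), replication over mitosis, was 0.87 in replicate 1 and 0.67 in replicate 2, with a mean of 0.77 ± 0.14, or 1.71-fold. Of the replication genes 9 of 10 lay above the median of all genes averaging at least 100 counts in both libraries, which was 11.2 TPM in replicate 1 against 11.5 TPM in replicate 2. Of the mitosis genes 5 of 20 did. The 9 G1 genes had a median of 16.8 ± 0.940 TPM and the 4 exit genes one of 19.7 ± 0.760 TPM.

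**Figure D1:**
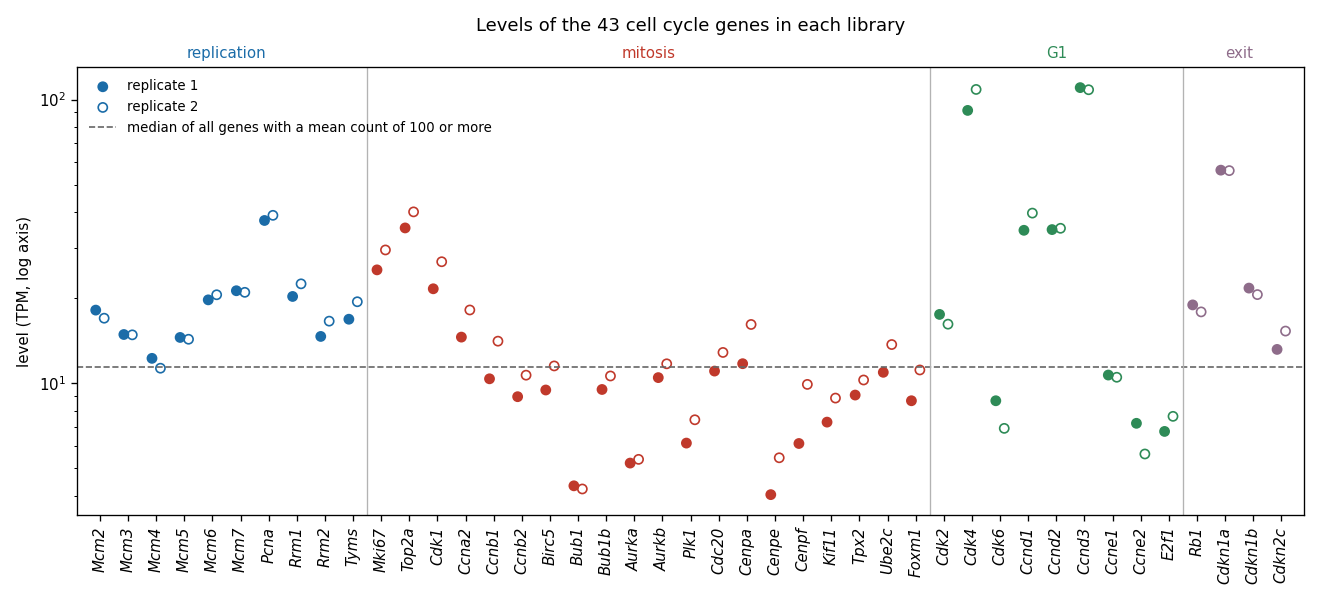
Level in TPM on a log axis of each of the 43 genes in replicate 1 (filled) and replicate 2 (open), coloured by class, with the median of all genes averaging at least 100 counts as a dashed line. Ccnd3 and Cdk4 stand near 100 TPM, the replication genes lie within 3.25-fold of each other, and the mitosis genes spread over 8.80-fold, from Bub1 to Top2a.

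Promoter letters were described by class. Genes of S phase are known to carry sites for E2F factors, while genes of G2 and mitosis are known for a CCAAT box together with a cell cycle homology region (CHR) close to the start site, bound by the DREAM and MuvB complexes. Promoters were taken from RefSeq on GRCm38.p6, from 250 bases before the start to 50 after it, and 34 of the 43 genes had at least 1, with 38 promoters in all. Entries were not found for Mcm4, Ccna2, Aurkb, Tpx2, Foxm1, Ccnd1, Ccnd2, Ccne2 and Rb1. Each was searched on both strands for an E2F motif (TTTCCCGC, TTTCGCGC, TTTGCCGC or TTTGGCGC), a CHR motif (TTTGAA or TTTAAA, the second of which reads the same on both strands) and CCAAT.

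Of the 16 mitosis genes with a promoter 15 held a CHR motif and 15 held CCAAT, with 14 holding both. Bub1 had no CHR letters and Birc5, which encodes survivin, no CCAAT in this window. Over all 32851 promoters listed, 27.6% held a CHR motif, 37.4% held CCAAT and 10.7% held both. A CHR motif within 50 bases on either side of the start, a distance chosen after the positions were seen, was found in 13 of the 16 mitosis promoters, against 8.28% of all promoters. The E2F motif was in 1 mitosis promoter, that of Cdk1.

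Of the 10 replication promoters, from 9 genes, 4 held an E2F motif (those of Mcm3, Mcm5, Mcm6 and Mcm7), against 2.26% of all promoters. CHR letters were in 3 of the 10, those of Mcm2, Mcm5 and Rrm2, and CCAAT in 9. Among the other classes E2F letters were found at Cdk2, and CHR letters at Ccne1 and Cdkn1b. A match is a run of letters, not a measured site, and a window without one says nothing of the factor.

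The promoters below are those of the mitosis genes of highest level (Top2a, Mki67 and Cdk1), of the 2 that differed most between the libraries (Ccnb1 and Cenpa), of the mitosis gene without CHR letters (Bub1), and of 2 replication genes whose E2F letters overlap on opposite strands (Mcm5 and Mcm6). Each runs 5′ to 3′ along its gene from 170 bases before the start to 30 after it, on GRCm38.p6, and E2F, CHR and CCAAT letters on either strand are in capitals.
Top2a (chr11:99024160-99024359, minus strand): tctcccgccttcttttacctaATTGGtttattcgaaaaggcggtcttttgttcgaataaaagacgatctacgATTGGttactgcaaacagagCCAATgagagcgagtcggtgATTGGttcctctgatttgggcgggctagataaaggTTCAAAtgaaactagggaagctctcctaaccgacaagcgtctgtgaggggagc
Mki67 (chr7:135716350-135716549, minus strand): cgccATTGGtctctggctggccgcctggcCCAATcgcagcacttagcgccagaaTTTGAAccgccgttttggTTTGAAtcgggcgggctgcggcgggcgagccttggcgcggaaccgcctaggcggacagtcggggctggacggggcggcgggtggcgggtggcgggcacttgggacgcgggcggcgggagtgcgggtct
Cdk1 (chr10:69352883-69353082, minus strand): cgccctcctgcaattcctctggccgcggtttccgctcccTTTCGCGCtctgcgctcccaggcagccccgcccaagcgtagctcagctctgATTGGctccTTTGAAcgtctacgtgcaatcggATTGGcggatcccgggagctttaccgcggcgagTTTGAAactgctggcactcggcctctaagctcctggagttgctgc
Ccnb1 (chr13:100786457-100786656, minus strand): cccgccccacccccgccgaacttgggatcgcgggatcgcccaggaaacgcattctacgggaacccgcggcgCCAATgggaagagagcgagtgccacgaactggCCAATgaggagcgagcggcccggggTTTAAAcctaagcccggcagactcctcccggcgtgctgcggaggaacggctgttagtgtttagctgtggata
Cenpa (chr5:30666716-30666915, plus strand): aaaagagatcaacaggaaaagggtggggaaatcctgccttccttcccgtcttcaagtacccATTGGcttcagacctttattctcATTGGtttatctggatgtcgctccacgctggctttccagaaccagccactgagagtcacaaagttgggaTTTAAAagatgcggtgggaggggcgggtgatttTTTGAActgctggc
Bub1 (chr2:127831830-127832029, minus strand): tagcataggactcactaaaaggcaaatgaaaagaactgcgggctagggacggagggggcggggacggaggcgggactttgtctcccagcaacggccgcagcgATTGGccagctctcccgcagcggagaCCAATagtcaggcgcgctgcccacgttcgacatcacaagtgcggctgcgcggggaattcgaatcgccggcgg
Mcm5 (chr8:75109339-75109538, plus strand): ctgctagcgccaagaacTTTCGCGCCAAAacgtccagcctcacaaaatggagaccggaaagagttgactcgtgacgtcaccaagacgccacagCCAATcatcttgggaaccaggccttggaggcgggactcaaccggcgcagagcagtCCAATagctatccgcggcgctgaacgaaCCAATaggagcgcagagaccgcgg
Mcm6 (chr1:128359676-128359875, minus strand): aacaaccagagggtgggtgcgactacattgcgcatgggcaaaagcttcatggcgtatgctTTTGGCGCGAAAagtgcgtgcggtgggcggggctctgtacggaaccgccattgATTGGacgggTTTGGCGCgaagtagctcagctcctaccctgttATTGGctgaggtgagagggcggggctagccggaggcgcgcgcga
In Top2a a CHR motif, read on the opposite strand as TTCAAA, lies 23 bases before the start, with CCAAT or its reverse complement ATTGG within the printed stretch at 58, 78, 98 and 149 bases. Ccnb1 has TTTAAA at 42 bases and CCAAT at 67 and 99, and Cenpa has TTTAAA at 17 bases before the start and TTTGAA from base 17 of the transcript. In Mcm5 and Mcm6 E2F letters on opposite strands overlap in a single run that begins 153 and 110 bases before the start, with E2F letters again at 47 bases in Mcm6.

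**Figure D2:**
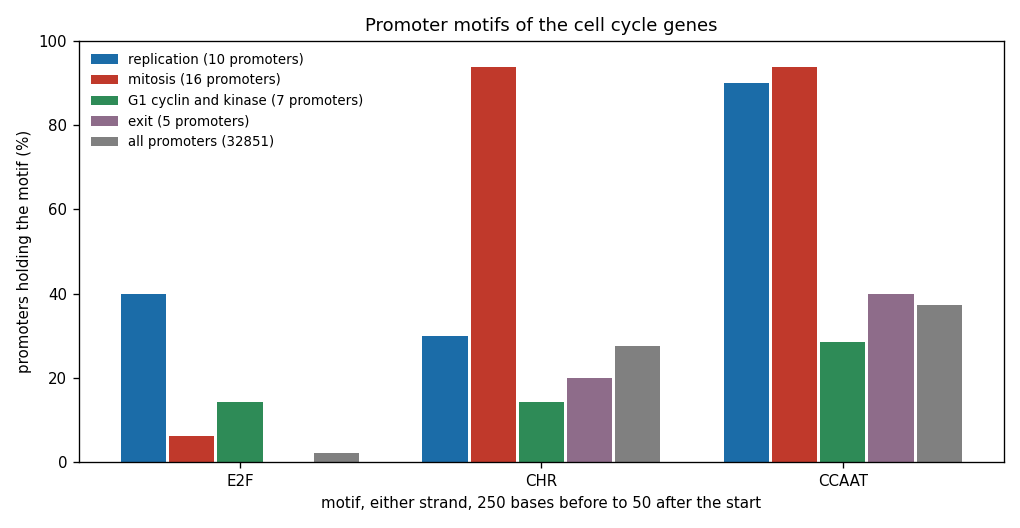
Share of promoters (%, vertical axis) that hold an E2F, CHR or CCAAT motif on either strand, for the 4 classes and for all 32851 promoters of the RefSeq table. CHR letters were in 93.8% of the 16 mitosis promoters and 30% of the 10 replication promoters, and E2F letters in 6.25% of the mitosis and 40% of the replication promoters.

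The 6 subunits of the replicative helicase, which act as a ring of equal parts, were within 1.79-fold of each other by alignment. Mcm7 was the highest, at 21.2 TPM in replicate 1 against 20.9 TPM in replicate 2, followed by Mcm6 at 19.7 and 20.5 TPM and Mcm2 at 18.1 and 16.9 TPM. Mcm3 had 14.8 TPM in both libraries, Mcm5 had 14.5 and 14.3 TPM, and Mcm4 was the lowest at 12.2 and 11.3 TPM. No subunit held more than 21.2% of the summed TPM of the 6, or less than 11.4%, in either library by alignment. In the quantification from reads Mcm7 held 28.2% in replicate 1 and 26.6% in replicate 2. It averaged 42.9 TPM there, against 17.7 TPM for Mcm4. In protein-coding transcripts alone, by alignment, Mcm6 was the highest at 19.0 and 19.8 TPM, above Mcm7 at 17.3 TPM in both libraries. The opposite strand of Mcm7 carries Cops6 and Ap4m1, and the use of strand in counting is not stated, which leaves its level uncertain.

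Pcna, the clamp that tethers polymerases to DNA, was the highest replication gene at 37.4 TPM in replicate 1 against 39.0 TPM in replicate 2. A processed pseudogene, Pcna-ps2, was given 94.2 and 125 counts beside 1494 and 1483 for Pcna, and the split of reads between them is an estimate. Among genes of nucleotide supply, Rrm1, the large subunit of ribonucleotide reductase, had 20.2 and 22.4 TPM. Its small subunit Rrm2 had 14.6 and 16.5 TPM, so the large subunit was above the small in both libraries. Tyms, which makes thymidylate, had 16.8 and 19.4 TPM.

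The mitosis genes comprised a few abundant and many scarce ones. Top2a, the topoisomerase that untangles sister chromatids, had 35.2 TPM in replicate 1 and 40.15 TPM in replicate 2. Mki67, whose protein coats mitotic chromosomes and is the common marker of cycling cells, had 25.1 and 29.5 TPM. Cdk1, the kinase that drives entry into mitosis, had 21.5 and 26.8 TPM, and its cyclin partners were lower. Ccna2 had 14.5 and 18.1 TPM, Ccnb1 10.35 and 14.05 TPM, and Ccnb2 8.95 and 10.7 TPM. Of the summed TPM of the B-type cyclins over all transcripts, Ccnb1 held 53.6% in replicate 1 and 56.9% in replicate 2. In protein-coding transcripts alone the order was reversed, with Ccnb1 at 7.06 and 8.73 TPM and Ccnb2 at 8.95 and 10.7 TPM.

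The genes of the kinetochore, where chromosomes meet the spindle, and of its checkpoint were spread widely. Cenpa, the histone variant that marks centromeres, had 11.7 TPM in replicate 1 and 16.1 TPM in replicate 2 over all transcripts. In protein-coding transcripts alone Cenpa had 2.95 and 3.45 TPM, near Bub1 at 2.92 and 3.15 TPM. The checkpoint gene Bub1b had 9.49 and 10.6 TPM, while its relative Bub1 had 4.34 and 4.23 TPM and was the lowest of the 43 on average. The kinetochore motor Cenpe was nearly as low at 4.04 and 5.45 TPM. Cenpf, a large protein of the outer kinetochore, had 6.12 and 9.89 TPM, the widest ratio of TPM between the libraries among the mitosis genes.

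Of the mitotic kinases, Aurkb, the kinase of the chromosomal passenger complex, was above Aurka, the kinase of spindle poles, in both libraries. Aurkb had 10.45 TPM in replicate 1 and 11.7 TPM in replicate 2 and held 67.6% ± 1.27 of the summed TPM of the pair. Aurka had 5.22 and 5.38 TPM, and Plk1, which acts from mitotic entry to cytokinesis, 6.14 and 7.42 TPM. Birc5, a partner of Aurkb, had 9.45 and 11.5 TPM. The spindle genes Kif11, a motor that pushes poles apart, and Tpx2, an activator of Aurka, had 7.28 and 8.85 TPM and 9.07 and 10.25 TPM.

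The genes that end mitosis by marking cyclins and securin for destruction were Cdc20, the activator of the anaphase-promoting complex, and Ube2c, its ubiquitin-conjugating enzyme. Cdc20 had 11.02 TPM in replicate 1 and 12.8 TPM in replicate 2, and Ube2c had 10.9 and 13.7 TPM. Ube2c overlaps Tnnc2 on the opposite strand, a muscle gene with 76606 and 60514 counts, against 280 and 327 counts for Ube2c. Tnnc2 was lower in replicate 2 while Ube2c was higher there, and the part of Tnnc2 reads in the Ube2c counts was not tested. Foxm1, a transcription factor of the mitosis genes, had 8.66 and 11.1 TPM.

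The highest levels belonged to a G1 cyclin and a G1 kinase, Ccnd3 and Cdk4. Ccnd3, the D-type cyclin known for its role in muscle differentiation (chr17:47505051-47599691, plus strand, mm10), had 110.1 TPM in replicate 1 and 108 TPM in replicate 2. It held 60.2% ± 1.60 of the summed TPM of the D-type cyclins, beside 20.5% ± 1.73 for Ccnd1 and 19.3% ± 0.132 for Ccnd2. Ccnd1 had 34.6 and 39.75 TPM and Ccnd2 34.8 and 35.1 TPM. Cdk4, a kinase partner of the D-type cyclins (chr10:127063534-127067920, plus strand), had 91.5 and 109 TPM and held 92.7% ± 1.87 of its sum with Cdk6, which had 8.66 and 6.92 TPM. In protein-coding transcripts alone Cdk4 had 24.1 and 25.4 TPM and Cdk6 8.54 and 6.80 TPM, so that share covers noncoding entries too. Summed over all transcripts, Ccnd3 was above Cdk4 in replicate 1 and level with it in replicate 2. In the quantification from reads Cdk4 averaged 180 TPM and Ccnd3 166 TPM.

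The genes that act at the step into S phase were scarcer. Cdk2, the partner of E-type cyclins, had 17.5 TPM in replicate 1 and 16.1 TPM in replicate 2. Ccne1 had 10.7 and 10.5 TPM and Ccne2 7.21 and 5.62 TPM, and E2f1, which switches on replication genes, 6.75 and 7.63 TPM. All 4 exit genes lay above the median of all genes. Cdkn1a, the inhibitor p21 that is known to accumulate when myoblasts leave the cycle, was the third highest of the 43, at 56.3 and 56.1 TPM. Cdkn1b, the inhibitor p27, had 21.6 and 20.5 TPM, Rb1, the pocket protein that holds E2F factors in check, 18.9 and 17.8 TPM, and Cdkn2c, the inhibitor p18 of Cdk4 and Cdk6, 13.1 and 15.25 TPM.

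An inhibitor outside the 43 genes exceeded all of them. Cdkn1c, the imprinted inhibitor p57, stood at 747 TPM in replicate 1 against 692 TPM in replicate 2. That was 13.3 and 12.3 times the level of Cdkn1a, and Cdkn1c held 90.3% ± 0.366 of the summed TPM of the inhibitors Cdkn1a, Cdkn1b and Cdkn1c. In contrast Cdkn2a, which encodes p16 and p19ARF, had 2 counts in each library, and its neighbour Cdkn2b 1 count in replicate 1 and 24 in replicate 2.

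Between the libraries the mitosis genes all lay on the same side, and the replication genes lay on both sides of 0. Ratios are log2 of depth-scaled expected counts, replicate 1 over replicate 2, so that a negative value means a higher level in replicate 2. All 20 mitosis genes were below 0, with a median of -0.24 and a range of -0.36 to -0.03. The median corresponds to a 1.18-fold higher level in replicate 2. Of the 10 replication genes 7 were below 0, with a median of -0.03 and a range of -0.12 to 0.11. The mitosis median minus the replication median was -0.21 on the log2 scale, a difference that no scaling of the libraries can alter. It was -0.18 in the quantification made directly from reads and -0.25 by ratios of TPM. By counts 18 of the 20 mitosis ratios lay below the lowest replication ratio. Over all 12421 genes averaging at least 100 counts, 48.1% were below 0 and 51.9% above it, and the median was 0.01.

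**Figure D3:**
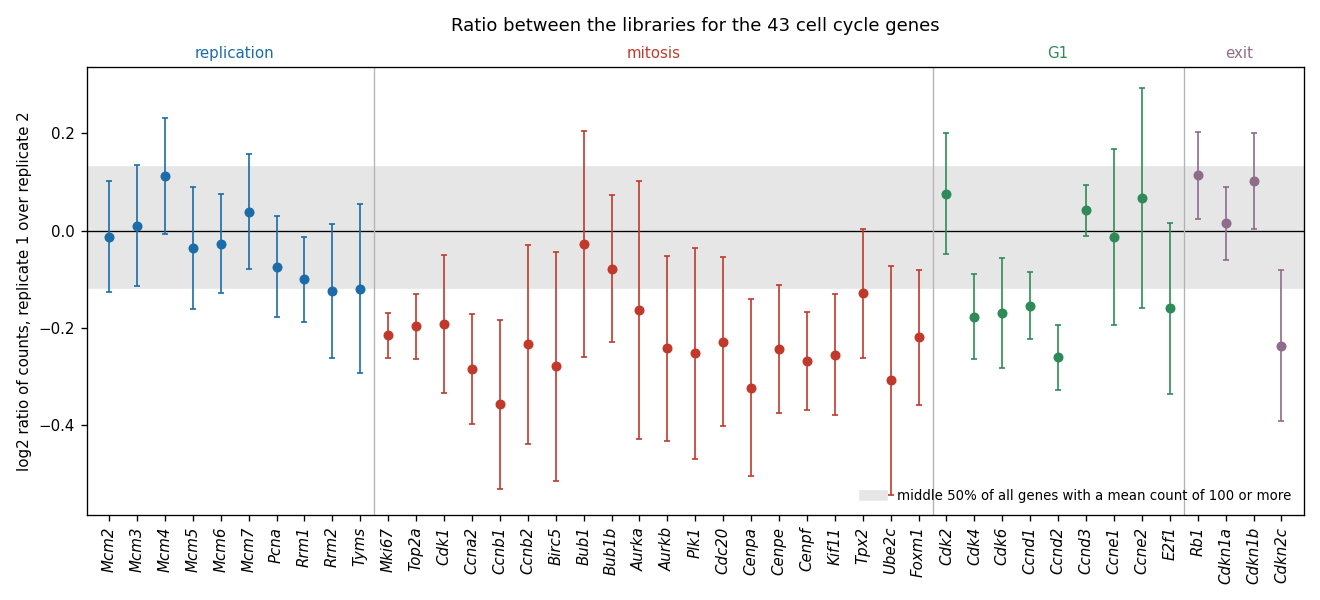
Log2 ratio of depth-scaled counts, replicate 1 over replicate 2, for each of the 43 genes, with bars for the exact 95% counting interval and the middle 50% of all genes averaging at least 100 counts in grey. All 20 mitosis genes lie below 0, 18 of them below every replication gene.

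Markers of other tissues also differed between the libraries. The summed TPM of 6 epidermis markers was 9.60 in replicate 1 and 746 in replicate 2, and that of 6 hair follicle markers 0.53 and 113, with all 12 genes higher in replicate 2. Krt27 had 0 TPM and Krt71 0.03 TPM in replicate 1, against 23.3 and 39.4 TPM in replicate 2. All 6 skeletal muscle markers were higher in replicate 1, at a sum of 42649 TPM against 39144 TPM. By depth-scaled counts so were 7 of 8 satellite cell and myoblast markers, whose sum was 284 against 256 TPM. The exception was Cdh15, and by TPM Itga7 too was higher in replicate 2, at 60.2 and 60.6 TPM. Myod1 had 31.2 TPM in replicate 1 and 19.1 TPM in replicate 2.

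All 6 macrophage markers were higher in replicate 2, at a sum of 88.1 TPM in replicate 1 and 100.3 TPM in replicate 2. The 6 fibroblast markers summed to 6088 and 6054 TPM and the 6 endothelial ones to 234 and 245 TPM. By depth-scaled counts 3 of 6 of each kind were higher in each library. By TPM the fibroblast marker Col3a1 was higher in replicate 2 instead, at 2277 and 2309 TPM. With ERCC scaling 4 of 8 satellite cell markers and all 6 fibroblast markers were higher in replicate 2. Of 6 erythroid markers 4 were higher in replicate 2, at sums of 521 and 574 TPM, with Klf1 at 0 TPM in replicate 1. The part of any of these cells in the mitosis ratios was not tested. Skeletal muscle markers, which define the labelled tissue, were by far the highest, with Acta1 at 13742 TPM in replicate 1 against 12991 TPM in replicate 2.

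The differences in the 43 genes were small. The widest was that of Ccnb1, with 499 counts in replicate 1 and 603 in replicate 2 and a log2 ratio of -0.36 (exact 95% counting interval -0.53 to -0.18), or 1.28-fold higher in replicate 2. Cenpa followed at -0.32 (-0.51 to -0.14). These were the only 2 of the 43 genes with a log2 ratio below -0.32, a higher level in replicate 2, and none was above 0.32, a higher level in replicate 1. Among genes averaging at least 100 counts, 8.03% lay below -0.32 and 5.71% above 0.32, and among those averaging at least 10 counts 16.6% and 10.1% were. The count of 2 was 1 with DESeq2 size factors or with no filter on low counts, 5 with scaling by total counts and 10 with scaling by ERCC spike-ins. The 2 genes are 4.65% of the 43. By shares added after seeing the data, with total counts the 43 genes were at 11.6% and all genes averaging at least 100 counts at 9.77%, and with ERCC scaling at 23.3% and 12.1%.

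The counting interval lay wholly below 0 for 22 of the 43 genes, against 19.9% of genes averaging at least 100 counts, and wholly above 0 for 2, Rb1 and Cdkn1b, against 22.8%. Of those 22 genes 16 were mitosis genes, 4 were G1 genes, 1 was Rrm1 and 1 was Cdkn2c. The interval covers counting error only, and as each animal gave 1 library, animal, dissection and library preparation cannot be told apart. Mki67, with 7307 counts in replicate 1 and 8002 in replicate 2, had the narrowest interval, at -0.22 (-0.26 to -0.17). Top2a stood at -0.20 (-0.26 to -0.13) and Cdk1 at -0.19 (-0.33 to -0.05).

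Only Bub1 (-0.03), Bub1b (-0.08), Tpx2 (-0.13) and Aurka (-0.16) among the mitosis genes had an interval that reached 0. In the quantification made directly from reads Bub1 was at 0.02, so 19 of 20 mitosis genes and 8 of 10 replication genes were below 0 there. The helicase subunits were near 0, from -0.04 for Mcm5 to 0.11 for Mcm4. The nucleotide genes lay lower, with Rrm1 at -0.10, Rrm2 at -0.12 and Tyms at -0.12.

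The G1 genes were split. Ccnd2 (-0.26), Cdk4 (-0.18), Cdk6 (-0.17), E2f1 (-0.16) and Ccnd1 (-0.15) were on the side of the mitosis genes, while Ccnd3 (0.04), Ccne2 (0.07) and Cdk2 (0.08) were above 0. Ccne1 was at -0.01. Of the exit genes Rb1 (0.11), Cdkn1b (0.10) and Cdkn1a (0.02) were above 0, whereas Cdkn2c stood at -0.24 (-0.39 to -0.08), close to the mitosis median. With ERCC scaling all 9 G1 genes and 9 of 10 replication genes were below 0, Cdkn1a too, and the replication and mitosis medians were -0.11 and -0.32.

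Ratios of TPM and of counts had opposite signs for 5 genes, since TPM divides by an effective length that follows the estimated mixture of transcripts in each library. For Cdk6 the log2 ratio of TPM was 0.32 and that of counts -0.17, since its effective length was 4843 bases in replicate 1 and 6908 bases in replicate 2. By TPM 19 of 20 mitosis genes, 5 of 10 replication genes and 4 of 9 G1 genes were below 0. For Mcm2, Bub1, Ccne1 and Mcm5 the log2 ratio of TPM was 0.09, 0.04, 0.03 and 0.02. The wide ratio of Cenpf by TPM was of the same kind. Its log2 ratio of counts was -0.27, near the other mitosis genes. Cenpf-202, a transcript of 358 bases, was given 0.65 counts in replicate 1 and 15.2 in replicate 2, yet 1.40% and 21.8% of the gene's TPM.

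Other genes of the same processes were described in the same way, on lists made with earlier results of these data known. The numbers below 0 and medians of these lists use no cut on counts unless stated. All 19 genes for spindle motors and cytokinesis were below 0, with a median of -0.19. In that list the highest levels were those of Kif23, a motor of the midzone, at 16 TPM in replicate 1 against 19.0 TPM in replicate 2, and Racgap1, its partner in centralspindlin, at 16.5 and 17.6 TPM. Of 21 genes of the kinetochore and spindle checkpoint 18 were below 0, with a median of -0.16, led in level by Zwint at 24.0 and 24.7 TPM and the checkpoint gene Bub3 at 19.0 and 18.7 TPM.

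The DNA synthesis list, of polymerases, clamp loaders and nucleotide enzymes, lay with the replication genes. Of its 22 genes 10 were below 0, with a median of 0.01, and its highest were Rpa1, which coats single-stranded DNA, at 27.3 TPM in replicate 1 against 25.7 TPM in replicate 2, and the polymerase subunit Pold2 at 22.1 and 22.5 TPM. Of 17 genes of origin licensing and firing 12 were below 0, with a median of -0.12. The origin recognition genes Orc3 and Orc4 led that list, at 22.4 and 21.5 TPM and 17.0 and 18.4 TPM, and Orc1 was under 1 TPM in both libraries, at 0.83 and 0.93 TPM.

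Condensin and cohesin genes were near 0, with 10 of 16 below it and a median of -0.02. Cohesin holds sister chromatids together and also shapes chromatin in cells that no longer divide, and its subunits Rad21 and Stag2 were the highest, with 46.2 and 46.1 TPM for Rad21 and 46.1 and 40.6 TPM for Stag2 in replicates 1 and 2. Of 16 pocket protein, E2F and DREAM genes 6 were below 0, with a median of 0.05, led by the E2F partners Tfdp1, at 33.1 and 32.0 TPM, and Tfdp2, at 28.6 and 25.3 TPM. Of 12 other inhibitors and p53 targets 7 were below 0, with a median of -0.05. Among the 9 of them averaging at least 100 counts 4 were below 0, with a median of 0.06. After Cdkn1c the highest of the 12 was Ccng1, a p53 target, at 121 and 112 TPM. With ERCC scaling the DNA synthesis and pocket protein medians were below 0, at -0.07 and -0.03, and all 19 spindle motor genes were below 0 under each of the 4 scalings tried.

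**Figure D4:**
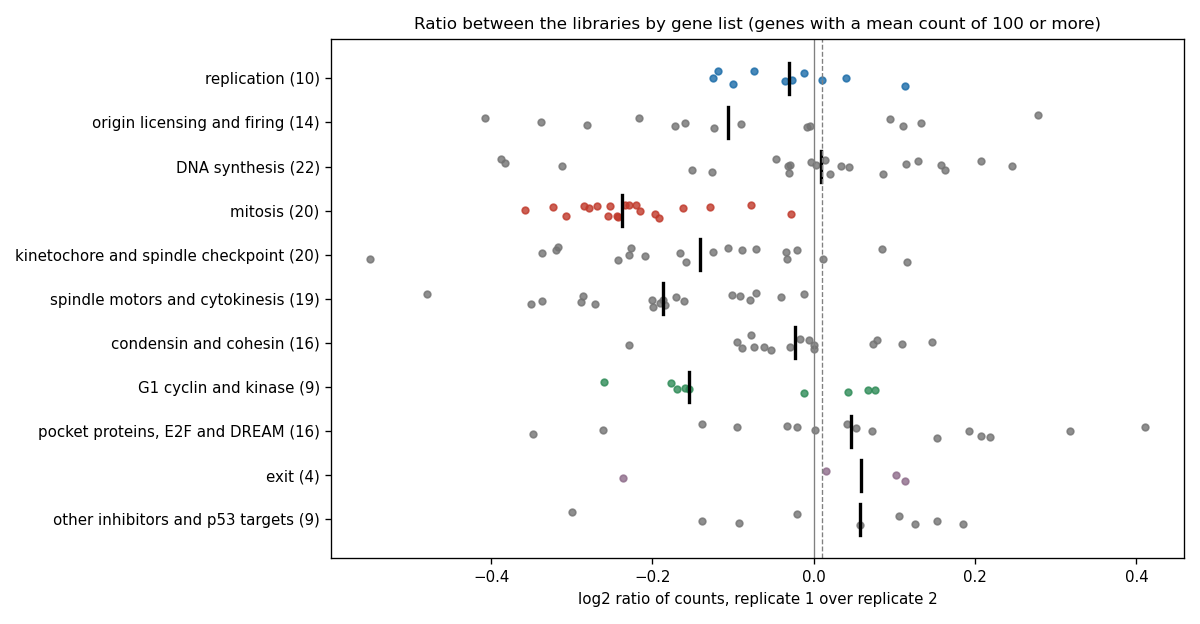
Log2 ratio of depth-scaled counts, replicate 1 over replicate 2 (horizontal axis), for genes averaging at least 100 counts in the 4 classes (coloured) and 7 other lists (grey), with the number of genes in brackets, list medians as black bars and the median of all such genes as a dashed line. The mitosis genes and the spindle motor list lie wholly below 0, and the DNA synthesis list is centred at 0.01.

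The level of a gene summed over its transcripts is not the level of its coding mRNA. By the mean of both libraries the leading transcript was protein-coding for 39 of the 43 genes, and for 30 it held 60% or more of the gene's TPM. In 3 genes coding transcripts held under 50% in both libraries. Tyms had 17.2% of its TPM in coding transcripts in replicate 1 and 25.2% in replicate 2, and 45.3% and 43.0% by the quantification from reads. Its leading transcript was Tyms-205, annotated as a target of nonsense-mediated decay, with 37.4% and 41.9%. At 618 bases Tyms-205 had 95.3 and 115 counts, fewer than the longer coding Tyms-201 at 158 and 178 counts. Cenpa had 25.3% and 21.4% in its coding transcript, behind Cenpa-202, also annotated for decay, with 37.0% and 39.4%. By the quantification from reads Cenpa was led in replicate 1 by Cenpa-204, at 29.3% and 15.1%, and in replicate 2 by Cenpa-201, at 28.7% and 27.3%, and both are annotated for decay.

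Cdk4 had 26.4% of its TPM in coding transcripts in replicate 1 and 23.4% in replicate 2. Its leading entry was Cdk4-209, a retained intron fragment of 468 bases, with 38.4% and 37.8% of TPM but 18.3% and 18.7% of the gene's counts. In coding transcripts alone Cdk4 stood at 24.1 and 25.4 TPM, below Ccnd3 at 107 and 105 TPM. Cdkn1a in coding transcripts remained at 56.3 and 56.1 TPM. The replication median over coding transcripts was 14.2 ± 0.912 TPM and the mitosis median 7.86 ± 1.17 TPM. On this scale 19 of 20 mitosis genes were higher in replicate 2, the exception being Plk1 at 6.14 and 6.11 TPM, and 8 of 10 replication genes were too.

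**Figure D5:**
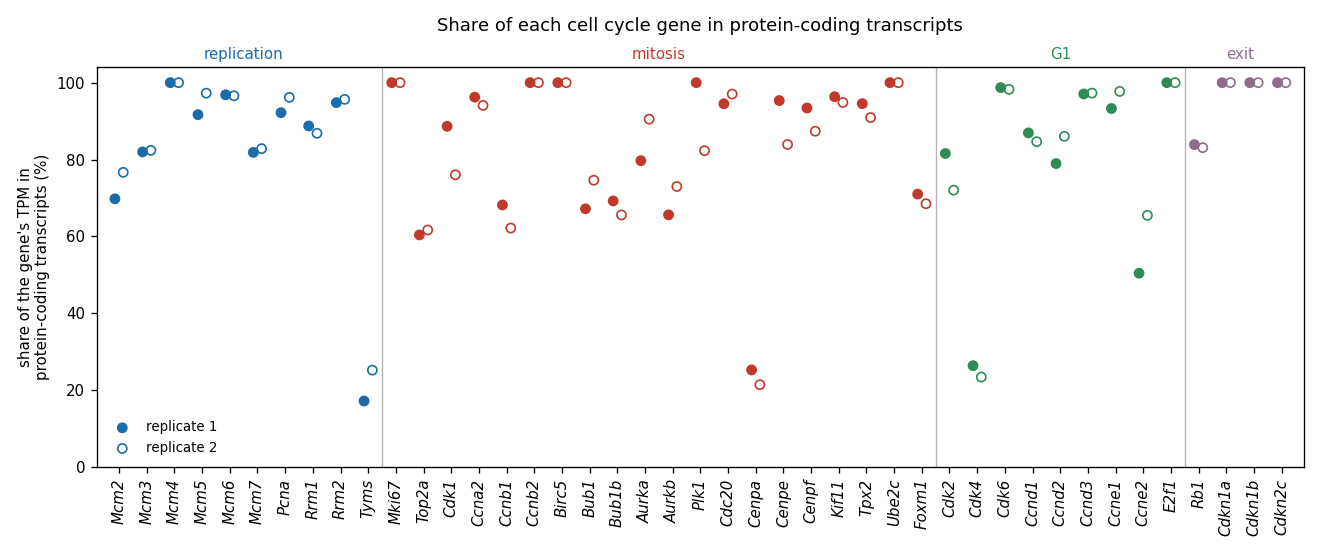
Share of each gene's TPM (%, vertical axis) held by protein-coding transcripts in replicate 1 (filled) and replicate 2 (open), coloured by class. Tyms, Cenpa and Cdk4 lie under 50% in both libraries, and Ccne2 at 50.4% in replicate 1 and 65.5% in replicate 2.

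The choice among coding transcripts was less certain than the sums. On the mean of both libraries the quantifications named the same leading transcript for 39 of the 43 genes. Cdkn1a-201 held 94.8% of Cdkn1a in replicate 1 and 97.9% in replicate 2 by alignment, but 23.6% and 18.5% by reads, where Cdkn1a-205 held 69.6% and 75.4%. Aurka-203 held 63.1% and 32.8% of Aurka by alignment and 8.02% and 0% by reads, where Aurka-201 led with 34.9% and 46.0% and Aurka-202 was given the same shares. For Ccne2 the noncoding Ccne2-205 held 37.6% and 27.8% by alignment and the coding Ccne2-207 17.2% and 36.7%, so that the leader differed between the libraries. By reads Ccne2-207 led with 37.2% and 53.4%.

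The remaining genes with a leading transcript under 60% on average had the same leader in both quantifications on the mean of the libraries. By alignment the leaders were Mcm7-201 (55.9% in replicate 1 and 53.8% in replicate 2), Ccnb1-201 (46.6% and 36.3%), Cenpf-204 (67.7% and 51.1%), Tpx2-201 (33.0% and 31.65%), Cdk2-201 (63.6% and 48.4%), Cdk6-202 (37.6% and 56.4%), Ccnd2-201 (49.8% and 61.0%) and Cdkn2c-202 (49.0% and 52.4%). In single libraries the order could differ. Tpx2-202 was above Tpx2-201 in replicate 1 by alignment, at 34.1%, as was Cdkn2c-201 above Cdkn2c-202, at 51.0% in replicate 1 against 47.6% in replicate 2. By reads Cdk6-203, at 50.8%, was above Cdk6-202, at 46.0%, in replicate 1. Ccnd3-205 held 92.4% and 94.0% of Ccnd3 by alignment but 28.8% and 35.1% by reads. There Ccnd3-218, also coding, was above it in replicate 1, at 35.3%. By alignment Mki67 was given wholly to the coding Mki67-201, which held 87.4% and 84.0% by reads. Coding sums could differ as well, and that of Pcna was 92.2% and 96.2% by alignment and 56.4% and 54.1% by reads.

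Besides Mcm7 and Ube2c, a further 8 genes overlap a protein-coding gene on the opposite strand and are uncertain for the same reason. These are Ccna2 with Exosc9, Cdc20 with Elovl1, Cdk2 with Pmel, Cdk4 with Tspan31, Ccnd1 with LTO1, Ccnd3 with Bysl, Ccne2 with Ints8, and Rb1 with Rcbtb2 and Lpar6. The partners of Cdc20 and Cdk2 were higher in replicate 2 by counts, with Elovl1 at 575 counts in replicate 1 and 914 in replicate 2 and Pmel at 89 and 140. Quantification from reads placed all 43 genes higher in TPM than the alignment did, by 1.08-fold for Bub1b to 2.22-fold for Pcna and by a median of 1.51-fold, so absolute levels depend on the method.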

How the data were processed

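The authors deposited, for each library, gene and transcript tables of expected counts and TPM, with the percent of its gene's TPM held by each transcript, derived from transcriptome alignments to mm10 with GENCODE M21, per the deposited notes. A second deposited table holds estimated counts and TPM made directly from the reads. The programs and the use of strand in counting are not stated in the labels or notes; reads from CAST alleles were quantified on the mm10 reference. RNA input was 300 ng per library with ERCC spike-ins, per the labels.

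Levels are deposited TPM. Ratios are log2 of expected counts, not rounded, with a prior count of 0.5, replicate 1 over replicate 2. They use TMM scaling (trimmed mean of M-values, edgeR 4.0.16, R 4.3.3) of unrounded counts over genes averaging at least 10 counts. Whole-number rounding was applied for DESeq2 and the exact (Clopper-Pearson) 95% counting intervals of scipy 1.17.1. Reads carry no molecular identifiers in these files, so intervals cover counting error only. The 96 ERCC controls and 26249 entries that name no gene (0.000152% and 0.000172% of counts) were left out. Alternatives were DESeq2 1.42.0 size factors, total counts, ERCC scaling, other filters and prior counts, the second quantification, and TPM over protein-coding genes. The ratio calculation was checked on data with known answers. The text names all 43 genes, of each other list the 2 genes of highest mean TPM and up to 2 under 1 TPM in both libraries, and leading transcripts that hold under 60% or differ between quantifications. Marker genes, pseudogenes, overlapping genes and the printed promoters were named after their values were seen. Of 124 genes on 7 other lists 123 were found, all but Sgol1. Members and lists were chosen with earlier results of these data known.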

Additional observations from a re-analysis of the deposited data

How the results depend on the processing

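By counts 19 or 20 of the 20 mitosis genes were below 0 in the ratio of replicate 1 over replicate 2 under the scalings, filters, prior counts and quantifications tried, and 7 to 9 of 10 replication genes. By ratios of TPM, an alternative added after seeing the data, 19 of 20 and 5 of 10 were, and the mitosis minus the replication median log2 ratio was -0.25. The log2 difference of the replication over the mitosis median was 0.71 by the quantification from reads and 0.87 by counts not divided by length. Absolute levels did not hold. Median TPM of the replication, mitosis, G1 and exit genes was 26.6, 16.2, 23.6 and 29.5 in the quantification made directly from reads, and 42.6, 24.9, 40.2 and 47.2 over protein-coding genes alone. The levels of 42 and 43 of the 43 genes moved by more than 1 SD under these alternatives. The median log2 ratio of the replication and mitosis genes was -0.074 and -0.28 with total counts and -0.11 and -0.32 with ERCC spike-ins, where the median of all genes averaging at least 100 counts was -0.03 and -0.07. Those of the 43 genes with a log2 ratio below -0.32 numbered 1 with DESeq2 size factors, 1 with no filter on low counts, 5 with total counts and 10 with ERCC spike-ins, against 2 in the main calculation. With n = 2, leaving out a replicate cannot move a mean by as much as 1 SD, so it is no check, and a ratio needs both libraries. No paired analysis was possible because there is 1 group. With 2 libraries, no spread of the ratios between animals can be estimated.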
